A study of Mus musculus with 6 samples.

Results

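The RAS exchange factors and GTPase activators analysed here were 9 genes chosen by name for what their proteins do to RAS, out of 40166 genes in the table. The exchange factors (guanine nucleotide exchange factors, GEFs) were *Sos1*, *Sos2*, *Rasgrp1* and *Rasgrp3*. The GTPase activators (GTPase-activating proteins, GAPs) were *Nf1*, *Rasa1*, *Rasa2*, *Rasa3* and *Rasal2*. Their mRNA was compared between YUMM3.3 tumors of mice given rigosertib (RGS) and of mice given vehicle. *Nf1* and *Rasa1* rose and *Rasa2* fell in RGS tumors, none of the 3 exchange factors that could be tested passed the test, and *Rasgrp1* had no count in any tumor. Of all tested genes, 32.8% passed in either direction, and the share of tested members that passed was near that.

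RAS proteins are small GTPases that signal to the RAF-MEK-ERK and PI3K-AKT pathways while bound to GTP. Exchange factors open the nucleotide pocket so that GDP leaves and GTP enters, which turns RAS on, whereas GTPase activators speed the hydrolysis of GTP and turn RAS off. SOS proteins are brought to activated receptors by the adaptor GRB2, RASGRP proteins are recruited by diacylglycerol, and neurofibromin, the product of *Nf1*, is a tumor suppressor whose gene is recurrently mutated in melanoma. RGS is a RAS mimetic that can occupy the RAS-binding domains of RAS effectors.

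All 6 tumors grew from YUMM3.3, a BRAF-mutant mouse melanoma line, under the skin of the lower back of C57BL/6 mice, which the methods describe as 8 to 10 weeks old and male or female. The vehicle group (n = 3 tumors, replicates 7, 8 and 9) was given water, and the RGS group (n = 3 tumors, replicates 10, 11 and 12) was given 300 mg/kg RGS, both by oral gavage on 5 days a week, and tumors were collected after 17 days of treatment. One cell line was used, the study describes the samples as whole tumors with stromal and immune cells, and the sources used here do not tie a tumor to the sex of its mouse. The libraries held between 13837932 and 32555494 counts, with the 3 vehicle libraries above the 3 RGS libraries, so that sequencing depth and treatment cannot be told apart. Levels are given as CPM, counts divided by the library total and set to a common scale, with trimmed mean of M-values (TMM) factors between 0.920 and 1.08. If the RNA came from whole tumors as described, fewer cells of a type and less RNA per cell cannot be told apart for any gene below.

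The label of a melanoma tumor was checked against melanocyte markers. *Dct*, *Tyr* and *Mlana* were listed at 0 in all 6 tumors, *Sox10* had counts in 1 tumor only (18 counts in RGS replicate 11), and *Mitf* had between 74 and 261 counts. The 6 markers summed to between 4.94 and 7.68 CPM with vehicle and between 4.53 and 10.5 CPM with RGS, so the tumors are called YUMM3.3 tumors here and their RNA is not described as melanocytic. Among host cell lists, the leukocyte genes *Laptm5* and *Cd53* rose, from 176.5 ± 36.8 to 901 ± 60.3 CPM and from 31.1 ± 2.62 to 82.3 ± 6.30 CPM. The sum of 4 leukocyte genes, most of it from *Laptm5*, was 187 to 248 CPM with vehicle and 920 to 1028 CPM with RGS. *Coro1a* had at most 20 counts in any tumor, and *Ptprc*, which encodes CD45, was at 0 throughout. Of 5 fibroblast genes, *Col1a2* and *Pdgfra* fell and *Dcn* rose, *Lum* was at 0, and the sum ranged from 364 to 553 CPM with vehicle and from 273 to 303 CPM with RGS. The NK cell sum was 0.516 to 2.53 CPM with vehicle and 7.53 to 12.6 CPM with RGS, nearly all from *Eomes*, the macrophage sum was 58.9 to 64.7 and 65.4 to 88.2 CPM, nearly all from *Cd68*, with *Adgre1* at 0, and 4 mast cell markers were at 0. With *Ptprc*, *Adgre1*, *Lum* and *Emcn* at 0 in all 6 tumors, these values do not show the stromal and immune cells that the description names, and which cells gave the RNA is not settled here. The part of these shifts in the results below was not tested.

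The upstream sequence of the 3 members that passed the test is shown because promoters are where transcription of a gene is controlled. Each is the part of RefSeq's window (GRCm38.p6, 250 bases before the RefSeq start) that lies outside the gene as the count table places it, written on the strand of the gene from 5′ to 3′. These parts have 51 bases for *Nf1*, 250 for *Rasa1* and 136 for *Rasa2*, so they do not cover the same region. A GGGCGG of *Rasa2* that starts 118 bases before the RefSeq start is cut by the end of its part. Capitals mark the letters CCGGAAG, the core of many ETS sites, GGGCGG, the GC box bound by SP proteins, and CCAAT, on either strand.
*Nf1*, chr11:79339642-79339692, plus strand: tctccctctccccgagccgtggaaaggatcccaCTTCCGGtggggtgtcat
*Rasa1*, chr13:85289487-85289736, minus strand: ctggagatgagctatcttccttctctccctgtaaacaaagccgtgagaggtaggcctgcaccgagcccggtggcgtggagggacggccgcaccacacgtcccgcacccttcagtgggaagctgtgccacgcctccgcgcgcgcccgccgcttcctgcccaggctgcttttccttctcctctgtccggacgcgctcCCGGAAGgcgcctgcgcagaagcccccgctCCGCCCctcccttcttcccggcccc
*Rasa2*, chr9:96631618-96631753, minus strand: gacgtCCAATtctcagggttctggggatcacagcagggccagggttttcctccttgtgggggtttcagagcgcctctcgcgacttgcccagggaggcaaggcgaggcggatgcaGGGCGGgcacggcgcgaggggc

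RefSeq held windows for 9 of 9 members, 10 windows in all because *Rasgrp3* has a pair of starts. CCGGAAG was found in 2 of the 10 windows, those of *Nf1* (217 bases before the RefSeq start) and *Rasa1* (55 bases before it), and in 6.91% of all 32851 promoter windows. These are the members that rose, which was noticed after the values were seen and was not tested. The letters G and C made up 74.0% of the *Nf1* window and 68.8% of the *Rasa1* window. Over the member windows this share ran from 47.6% (*Rasgrp3*) to 82.8% (*Sos2*), and its median over all windows was 52.4%. The shares of all windows given here were not matched for it. GGGCGG stood in the windows of *Rasa1*, *Rasa2*, *Rasa3*, *Rasgrp1* and *Sos2*, against 32.7% of all windows, and CCAAT in those of *Rasa2* and *Rasa3*, against 33.8%. CACGTG (6.02% of all windows), the AP-1 letters TGANTCA (6.75%) and the NRF1 motif (0.782%) were in no member's window. A match is a run of letters and not a measured binding site.

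After a filter on a median of at least 5 counts in at least 1 group, 8 of the 9 members were tested among 15355 genes with edgeR's quasi-likelihood F test, at a Benjamini-Hochberg adjusted p under 0.05. Of these 8, 2 were higher and 1 was lower in RGS tumors, against 16.3% higher and 16.5% lower (32.8% in either direction) among all tested genes, so the share of members that changed was near that of all genes. The groups did not overlap for 4 members, of which 2 were higher (21.7% of all tested genes) and 2 were lower (24%), against 45.8% of all tested genes in either direction. The median log2 fold change was -0.23 over the 8 members and -0.048 over all tested genes.

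**Figure D1:**
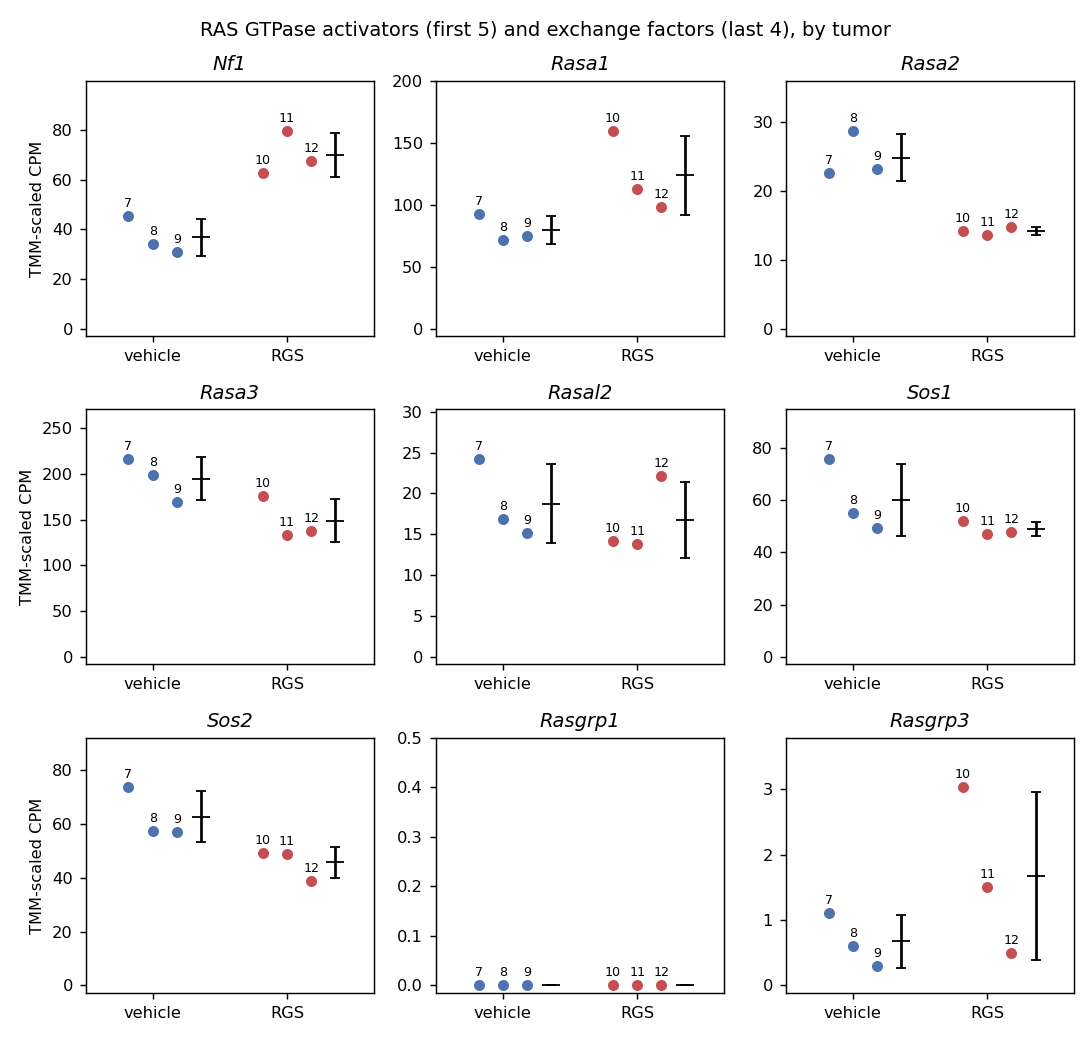
TMM-scaled CPM of each of the 9 members in each tumor (vertical axes, each starting at 0), with vehicle in blue, RGS in red, the replicate number above each point, and a horizontal mark and bar for the mean ± SD of 3 tumors. *Nf1*, *Rasa1*, *Rasa2* and *Sos2* show no overlap between the groups, and *Rasgrp1* lies at 0 in all 6 tumors.

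*Nf1* (ENSMUSG00000020716.16, chr11:79339693-79581612, GRCm38) encodes neurofibromin, a large GTPase activator held at the membrane by SPRED proteins. It measured 45.2, 34.2 and 31.0 CPM in vehicle replicates 7, 8 and 9 and 62.9, 79.9 and 67.4 CPM in RGS replicates 10, 11 and 12. The lowest RGS tumor stood above the highest vehicle tumor. The mean went from 36.8 ± 7.48 to 70.1 ± 8.79 CPM (SD, n = 3 each), a 1.90-fold rise with a log2 fold change of 0.93 (SE 0.19, 95% interval 0.53 to 1.33, edgeR adjusted p = 0.000961). It was the member whose call held in 15 of 15 alternative settings, with log2 fold changes from 0.78 to 1.10.

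*Rasa1* (ENSMUSG00000021549.14, chr13:85214780-85289130) encodes p120 RasGAP, which binds phosphorylated receptors and docking proteins through its SH2 domains. Vehicle replicates 7, 8 and 9 gave 92.6, 71.8 and 75.2 CPM, and RGS replicates 10, 11 and 12 gave 160.0, 113 and 98.5 CPM. The groups did not overlap, but RGS replicate 10 stood well above the other RGS tumors, and RGS replicate 12 was close to vehicle replicate 7. *Rasa1* rose 1.55-fold, from 79.9 ± 11.2 to 124 ± 32.2 CPM (log2 fold change 0.63, SE 0.19, 95% interval 0.24 to 1.03, edgeR adjusted p = 0.0142). The call was lost without RGS replicate 10 (log2 fold change 0.40, adjusted p = 0.119), without vehicle replicate 8 (0.58, adjusted p = 0.0588) and with scaling by library size only (0.50, adjusted p = 0.0637), where the median of all tested genes moved from -0.048 to -0.19. *Rasa1* shares 12 exonic bases, 0.164% of its exonic length, with *Ccnh* on the other strand.

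*Rasa2* (ENSMUSG00000032413.12, chr9:96539300-96631617) encodes a GTPase activator of the GAP1 family, loss of which has been described in melanoma. Its CPM values were 22.6, 28.8 and 23.1 with vehicle and 14.2, 13.6 and 14.8 with RGS. The RGS tumors lay within a range narrower than that of any other tested member in that group, with a highest value 1.09 times the lowest, and all were below the vehicle tumors. *Rasa2* fell 1.75-fold, from 24.8 ± 3.43 to 14.2 ± 0.623 CPM (log2 fold change -0.81, SE 0.23, 95% interval -1.29 to -0.33, edgeR adjusted p = 0.0112). Vehicle replicate 8 was the highest tumor, and without it the call was lost (log2 fold change -0.67, adjusted p = 0.115).

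*Rasa3* (ENSMUSG00000031453.16, chr8:13566948-13677603), a GTPase activator of the same family that also acts on RAP1, was the member with the most counts, between 1764 and 7578 per tumor. It measured 216, 199 and 169.5 CPM with vehicle and 176, 133 and 138 CPM with RGS. RGS replicate 10 stood above vehicle replicate 9, so the groups overlapped. The means were 195 ± 23.6 and 149 ± 23.6 CPM, with a log2 fold change of -0.39 (SE 0.16, 95% interval -0.73 to -0.043) that did not pass the test (edgeR adjusted p = 0.0779). It did pass in 4 of 15 alternatives, which were limma voom with quality weights (-0.42, adjusted p = 0.00895), library size only (-0.53, adjusted p = 0.0265), and the fits without vehicle replicate 9 (-0.47, adjusted p = 0.0462) or without RGS replicate 10 (-0.52, adjusted p = 0.0417). *Rasa3* is known for its role in platelets. Of 4 platelet and megakaryocyte markers, *Pf4* and *Gp9* were at 0 in all 6 tumors, and the sum of the 4, nearly all from *Itga2b*, was 7.85 to 10.98 CPM with vehicle and 4.40 to 12.1 CPM with RGS. The part of these cells in the *Rasa3* values was not tested.

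*Rasal2* (ENSMUSG00000070565.11, chr1:157135182-157412595) encodes a GTPase activator of RAS. Its values were 24.2, 16.9 and 15.1 CPM with vehicle and 14.2, 13.9 and 22.1 CPM with RGS. One tumor in each group, vehicle replicate 7 and RGS replicate 12, stood apart from the others, and the groups overlapped almost fully. The log2 fold change was -0.17 (SE 0.27, 95% interval -0.73 to 0.40, edgeR adjusted p = 0.676), and without vehicle replicate 7 it was 0.061. *Rasal2* shares 244 exonic bases, 1.776% of its exonic length, with the pseudogene *2810025M15Rik* on the other strand, which had 251 to 880 counts per tumor.

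Of the exchange factors, *Sos1* (ENSMUSG00000024241.6, chr17:80393752-80480453), the main link from receptor tyrosine kinases to RAS in many cells, measured 75.7, 54.9 and 49.4 CPM with vehicle and 51.9, 46.9 and 48.0 CPM with RGS. Vehicle replicate 7 was far above the rest, and vehicle replicate 9 lay among the RGS tumors. The means of 60.0 ± 13.9 and 48.9 ± 2.64 CPM gave a log2 fold change of -0.30 (SE 0.19, 95% interval -0.69 to 0.098, edgeR adjusted p = 0.244), and *Sos1* passed in none of the 15 alternatives. Without vehicle replicate 7 the log2 fold change was -0.093.

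*Sos2* (ENSMUSG00000034801.13, chr12:69583762-69681852), its close relative, gave 73.5, 57.2 and 57.1 CPM with vehicle and 49.3, 48.9 and 38.9 CPM with RGS. The highest RGS value lay below the lowest vehicle value, as for 24% of all tested genes. The means were 62.6 ± 9.46 and 45.7 ± 5.88 CPM, with a log2 fold change of -0.45 (SE 0.18, 95% interval -0.84 to -0.072) that did not pass (edgeR adjusted p = 0.0632). At an unadjusted edgeR threshold of 0.05, 1 exchange factor, *Sos2*, would pass, and neither DESeq2 nor limma voom called any of the 3. The 2 alternatives in which it passed were library size only (-0.59, adjusted p = 0.0246) and counts thinned to the smallest library (-0.50, adjusted p = 0.0386).

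*Rasgrp1* (ENSMUSG00000027347.18, chr2:117279993-117343001) encodes the exchange factor that couples the T cell receptor to RAS. It had 0 counts in all 6 tumors, and 3 counts, the limit that a count of 0 allows, corresponded to 0.0856 to 0.129 CPM in vehicle and 0.142 to 0.226 CPM in RGS libraries. That limit covers counting error only. Of 9 T cell markers, *Cd3d*, *Cd3e*, *Cd3g*, *Cd2* and *Cd8a* were also at 0 throughout, and the sum of all 9 was 0.913 to 3.61 CPM with vehicle and 1.77 to 3.69 CPM with RGS. *Trac*, which encodes the constant part of the T cell receptor alpha chain, was at 0 in all vehicle tumors and had 30, 16 and 10 counts in the RGS tumors. *Lck*, the largest part of the vehicle sum, went the other way, from 1.91 ± 1.12 to 1.47 ± 0.904 CPM, and was not called. *Cd4* had 14 counts in vehicle replicate 9 and *Cd247* 5 in vehicle replicate 7, and both were at 0 in all RGS tumors.

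*Rasgrp3* (ENSMUSG00000071042.11, chr17:75435905-75529043), an exchange factor known from B cells and blood vessels, was close to the lower end of what could be tested. It had 39, 17 and 7 counts with vehicle and 64, 20 and 8 counts with RGS, or 1.11, 0.606 and 0.301 against 3.03, 1.51 and 0.489 CPM. Values within a group spread more than the group means differed, with a highest value 6.19 times the lowest in RGS tumors. Between the groups, *Rasgrp3* had a log2 fold change of 1.31 (SE 1.03, 95% interval -0.86 to 3.47, edgeR adjusted p = 0.360), so neither a rise nor a fall passed the test. Without RGS replicate 10 it was 0.55. *Ms4a1*, *Cd79b* and *Pax5* of 4 B cell markers were at 0, and the sum of the 4 was at most 0.473 CPM. Of 7 endothelial markers *Emcn* was at 0 and *Cdh5* rose from 0.555 ± 0.266 to 6.20 ± 3.78 CPM, and *Flt1*, which made up nearly all of the sum, had 41.9 ± 11.8 and 30.6 ± 1.59 CPM and was not called, with the sum of the 7 between 33.2 and 56.2 CPM with vehicle and between 35.9 and 41.1 CPM with RGS. The part of these cells in the *Rasgrp3* values was not tested.

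**Figure D2:**
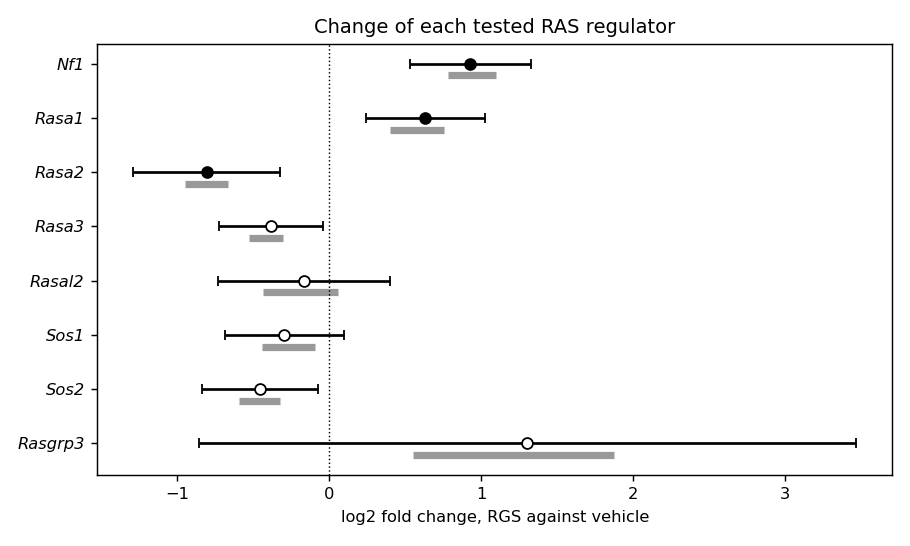
Log2 fold change of RGS against vehicle (horizontal axis) for the 8 tested members, as points with 95% intervals, filled where the adjusted p was under 0.05, with a gray bar under each for the range over 15 alternative settings. The intervals of *Nf1*, *Rasa1*, *Rasa2*, *Rasa3* and *Sos2* lie away from 0, the first 3 with filled points, and the gray bar of *Rasal2* crosses it.

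Vehicle replicate 7, the deepest library, had the highest value of its group for 7 of the 8 tested members, whereas it was highest for 41.1% of all tested genes. Vehicle replicate 9 had the lowest value for 6 of the 8. The members were measured in the same 6 libraries, so their changes are not independent of each other. From the lowest to the highest vehicle tumor, *Rasgrp3* spread 3.70 times, *Rasal2* from 15.1 to 24.2 CPM, *Sos1* 1.53 times and *Nf1* 1.46 times, and the other tested members less.

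Levels of different genes were compared per kilobase of the gene length in the table (CPM per kb). In vehicle tumors the order was *Rasa3* at 38.2 ± 4.64, *Rasa1* at 10.9 ± 1.53, *Sos2* at 7.35 ± 1.11, *Sos1* at 6.73 ± 1.56, *Nf1* at 2.32 ± 0.472, *Rasa2* at 1.56 ± 0.216, *Rasal2* at 1.37 ± 0.350 and *Rasgrp3* at 0.137 ± 0.0834 CPM per kb (SD, n = 3). Values of *Sos2* and *Sos1* overlapped, as did those of *Rasa2* and *Rasal2*, and the other neighbours in the order did not. In RGS tumors *Rasa3* was at 29.2 ± 4.63, *Rasa1* at 16.9 ± 4.39, *Sos1* at 5.48 ± 0.296, *Sos2* at 5.37 ± 0.690, *Nf1* at 4.42 ± 0.555, *Rasal2* at 1.22 ± 0.339, *Rasa2* at 0.894 ± 0.0393 and *Rasgrp3* at 0.340 CPM per kb. There *Sos1* overlapped with *Sos2*, and the range of *Sos2* with that of *Nf1*, although *Sos2* was above *Nf1* in each of the 3 RGS tumors. The place of *Sos1* above *Sos2* in RGS tumors depends on the gene length used for *Sos1*, which is longer in GENCODE M21. *Rasal2* and *Rasa2* changed places, and in RGS tumors their values no longer overlapped.

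**Figure D3:**
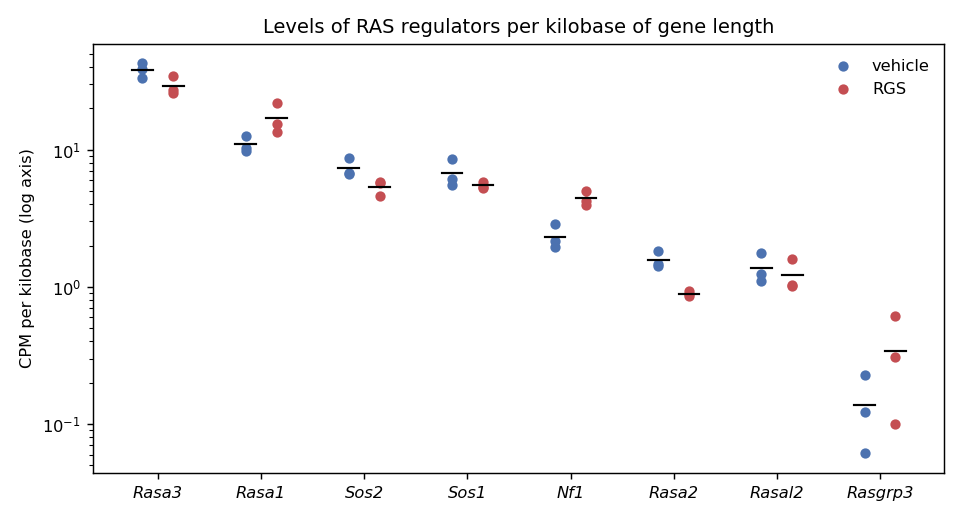
Level of each member per kilobase of gene length (CPM per kilobase, log axis) in each tumor, vehicle in blue and RGS in red, with a black line at the mean of 3 tumors. *Rasa3* is the highest member in both groups, and in RGS tumors the range of *Nf1* overlaps that of *Sos2*, although *Nf1* is below *Sos2* in each of the 3 tumors. *Rasgrp1*, at 0, cannot be drawn on a log axis.

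*Rasa3* made up 70.3% of the summed level per kilobase of the 5 GTPase activators in vehicle tumors and 55.5% in RGS tumors. The share of *Rasa1* was 20.1% with vehicle and 31.8% with RGS, and that of *Nf1* was 4.24% and 8.59%. *Rasa2* held 2.91% and 1.72%, and *Rasal2* 2.49% and 2.38%. The sum over the GTPase activators stayed within its spread, at 54.4 ± 6.56 and 52.7 ± 8.35 CPM per kb, while the sum over the exchange factors was 14.2 ± 2.74 and 11.2 ± 1.09 CPM per kb, nearly all of it from *Sos1* and *Sos2*.

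The ratio of the 2 sums within a tumor was 3.52, 4.15 and 3.91 in the vehicle tumors and 5.10, 4.28 and 4.71 in the RGS tumors. All 3 RGS values were above all 3 vehicle values, with a small gap between RGS replicate 11 and vehicle replicate 8. The mean ratio was 3.86 ± 0.316 with vehicle and 4.70 ± 0.408 with RGS, a mean log2 difference of 0.28, or 0.42 when counts were not divided by length. The ratio is given without a test, since the genes were chosen with earlier results of these data known, and it is an mRNA ratio that does not measure RAS activity.

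The balance between related genes was compared as the log2 ratio of their counts within a tumor, over 3 pairs, with a two-sided exact permutation test whose smallest possible p with 3 against 3 tumors is 0.1. The *Sos1* to *Sos2* ratio differed by 0.18 between RGS and vehicle tumors (exact p = 0.3, adjusted over the 3 pairs 0.4), and by 0.081 to 0.26 with a tumor left out, the lowest without RGS replicate 12. The *Nf1* to *Rasa1* ratio differed by 0.33 (exact p = 0.4, adjusted 0.4), with RGS replicates 11 and 12 above all vehicle tumors and RGS replicate 10 below them. Without RGS replicate 10 it differed by 0.60, without RGS replicate 11 by 0.18 and without RGS replicate 12 by 0.20. The *Rasa2* to *Rasa3* ratio differed by -0.41 (exact p = 0.2, adjusted 0.4). The groups overlapped in all 3 pairs. *Rasgrp1* and *Rasgrp3* gave no ratio because *Rasgrp1* was at 0.

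**Figure D4:**
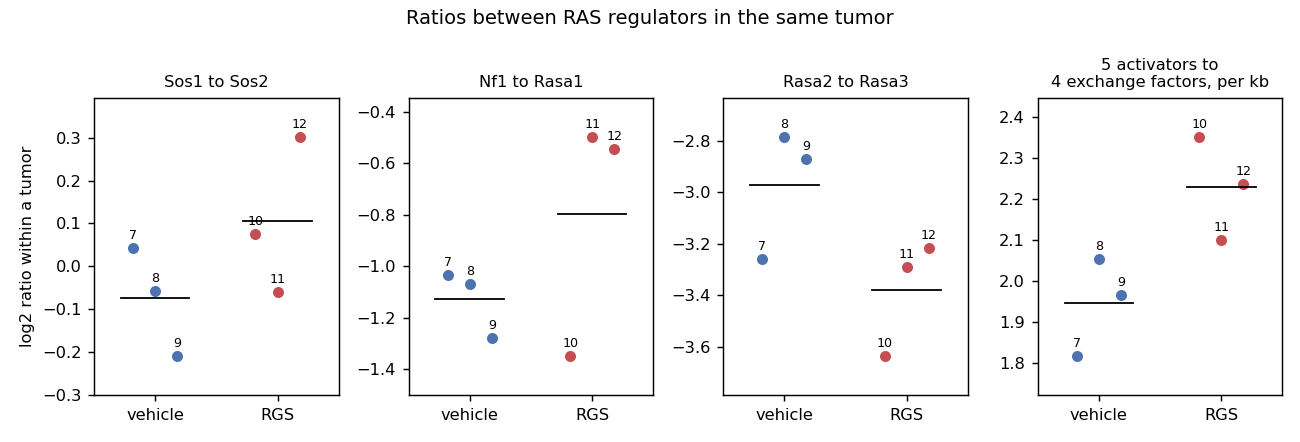
Log2 ratio within each tumor (vertical axes) of *Sos1* to *Sos2*, *Nf1* to *Rasa1* and *Rasa2* to *Rasa3* counts, and of the summed levels per kilobase of 5 GTPase activators to 4 exchange factors, with a black line at the mean of 3 tumors and the replicate numbers above the points. Vehicle (blue) and RGS (red) overlap in the first 3 panels and not in the last.

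Genes that act with these regulators were taken from 7 lists, with 29 genes in the table and 24 tested. Of the 24, 5 were higher and 2 were lower in RGS tumors, 10 had groups that did not overlap, and the median log2 fold change was 0.26. Over all tested genes 16.3% were higher, 16.5% were lower and 45.8% did not overlap, with a median of -0.048, so the counts of calls and of non-overlapping groups were near those of all genes. Among other GTPase activators, *Dab2ip*, which encodes a GTPase activator described as a tumor suppressor, rose from 50.9 ± 12.8 to 122 ± 14.6 CPM (log2 fold change 1.26, SE 0.19, edgeR adjusted p = 4.96e-05), and *Rasa4*, a calcium-responsive relative of *Rasa2* and *Rasa3*, rose from 53.6 ± 4.32 to 101 ± 6.90 CPM (0.92, SE 0.16, adjusted p = 0.000247). *Rasal1* and *Rasal3* were at 0 in all tumors. Among other exchange factors only *Rasgrf1* had enough counts to be tested (0.40, adjusted p = 0.259), and *Rasgrf2* and *Rasgrp4* had at most 15 and 5 counts in any tumor.

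Of the 3 partners of neurofibromin, which bring it to the membrane, *Spred2* rose from 72.8 ± 16.8 to 194 ± 8.19 CPM (log2 fold change 1.41, SE 0.17, edgeR adjusted p = 5.61e-06). *Spred3* rose from 42.1 ± 4.94 to 79.0 ± 6.55 CPM (0.91, SE 0.17, adjusted p = 0.000459). *Spred1* had the highest level with vehicle, at 199.7 ± 16.3 CPM, and 249.5 ± 10.1 CPM with RGS. It did not pass (0.32, edgeR adjusted p = 0.102), although its RGS values were all above its vehicle values, as for 21.7% of all tested genes. *Spred1* passed in 3 of 15 alternatives, among them DESeq2 (0.33, DESeq2 adjusted p = 0.0495). Calls as higher were made for 2 of these 3 genes and for 16.3% of all tested genes. The calls of *Spred2* and *Spred3* held in all 15 alternatives, as did those of *Nf1*, *Rasa4*, *Dab2ip*, *Grb2* and *Rras2*.

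Of 4 partners of RASA1, the docking protein gene *Dok1* fell from 111 ± 9.51 to 79.1 ± 3.49 CPM (log2 fold change -0.49, SE 0.16, edgeR adjusted p = 0.0205), a call that was lost without vehicle replicate 8 (-0.42), vehicle replicate 9 (-0.48), RGS replicate 10 (-0.49) or RGS replicate 12 (-0.49), with adjusted p from 0.0545 to 0.151. *Ephb4*, a receptor that recruits RASA1, and *Arhgap35*, which encodes p190 RhoGAP, had log2 fold changes of 0.31 (adjusted p = 0.156) and 0.25 (adjusted p = 0.340). *Dok2* had no counts in RGS replicates 10 and 11 and 41 counts in RGS replicate 12. Of 6 adaptors of SOS, *Grb2*, which carries SOS to receptors, rose from 96.8 ± 4.10 to 179 ± 19.0 CPM (0.89, SE 0.15, adjusted p = 0.000209), and *Shc1*, *Gab1*, *Gab2*, *Frs2* and *Ptpn11* did not pass. Among genes that make or remove diacylglycerol, the signal for RASGRP proteins, *Plcg1*, *Dgka* and *Dgkz* did not pass (0.19, -0.35 and 0.52), and *Plcg2* had at most 3 counts.

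The RAS family GTPases are the substrates of these regulators, and 1 of 5 changed, against 32.8% of all tested genes. *Rras2*, which encodes TC21, fell from 213 ± 7.52 to 130.2 ± 8.46 CPM (log2 fold change -0.71, SE 0.15, edgeR adjusted p = 0.00113). *Hras* and *Nras* had log2 fold changes of -0.15 (edgeR adjusted p = 0.564) and -0.29 (edgeR adjusted p = 0.177). All 3 *Nras* values with RGS were below those with vehicle, as for 24% of all tested genes. *Rras* had a log2 fold change of 0.33 (edgeR adjusted p = 0.113), with all RGS values above the vehicle values, as for 21.7% of all tested genes. That of *Mras* was -0.055 (edgeR adjusted p = 0.840). The 5 GTPases summed to between 523 and 544.5 CPM with vehicle and between 429.8 and 468 CPM with RGS.

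**Figure D5:**
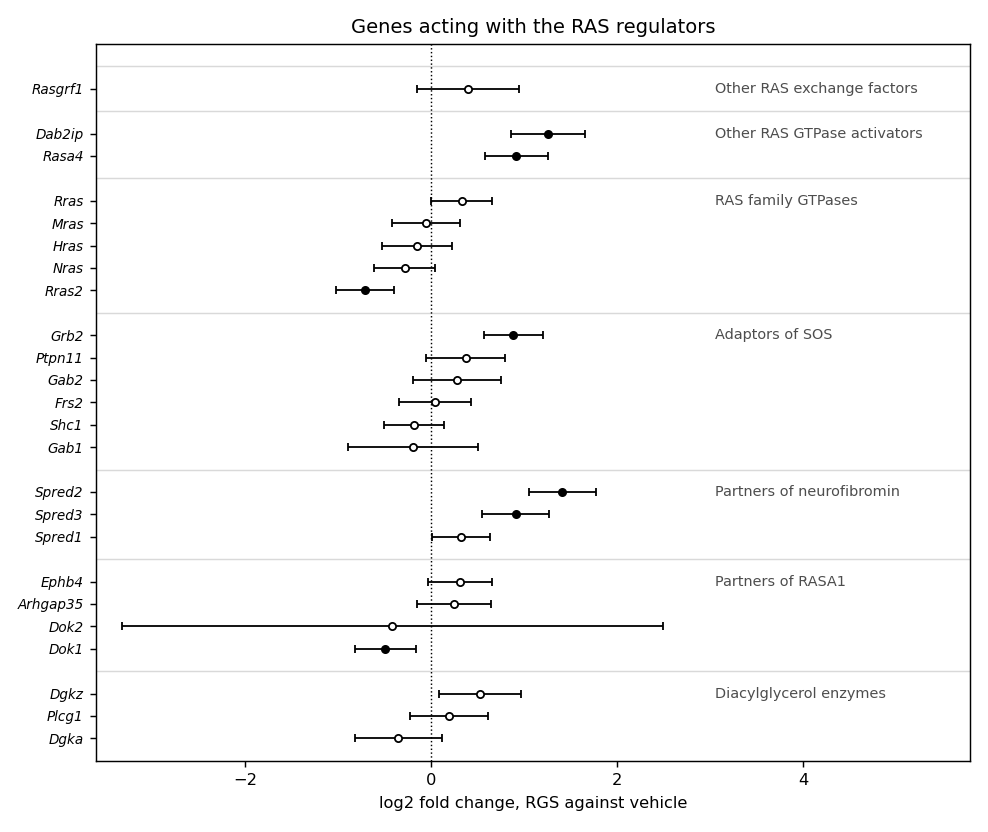
Log2 fold change of RGS against vehicle (horizontal axis) with 95% intervals for the 24 tested genes acting with the regulators, grouped by list and filled where the adjusted p was under 0.05. *Spred2*, *Dab2ip*, *Rasa4*, *Spred3* and *Grb2* lie to the right, *Rras2* and *Dok1* to the left, and *Dok2* has the widest interval.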

How the data were processed

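Paired-end reads of 150 bases from 6 tumors were aligned with STAR 2.7.1a and counted with featureCounts 1.6.4 on mm10, after cutadapt 1.18 and FastQC 0.11.7, per the submitters' processing notes. How strand and multimapping reads were handled is not given in the sources used here. The authors deposited raw counts per gene, without normalization, and each gene's length. The 38927 gene identifiers shared with GENCODE M21 (GRCm38) had the same positions there, among them 7 of the 9 members. *Sos1* and *Rasgrp3* had another version number there, with 10594 and 5840 exonic bases against the lengths of 8919 and 4921 used here. Those longer lengths would lower the levels per kilobase of *Sos1* and *Rasgrp3* and the exchange factor sum. The place of *Sos1* above *Sos2* in RGS tumors (5.48 against 5.37 CPM per kb) depends on the shorter length of *Sos1*. The rest of the order and the ratio of sums were not computed with the longer lengths. Of 40166 genes, 17378 had no count.

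From these counts, edgeR 4.0.16 in R 4.3.3 (TMM factors, a median of at least 5 counts in at least 1 group, quasi-likelihood F test, Benjamini-Hochberg over 15355 genes) compared 3 RGS with 3 vehicle tumors. The SE was taken from the F statistic, as the absolute log2 fold change over its square root. Replicate pairs differed by 19.7 to 132 chi-square per degree of freedom, above counting noise, so none was the same library sequenced again. The comparison was with counting noise only, so whether any pair came from the same tumor or animal was not tested. The edgeR p-values set the difference between group means against the spread between these tumors, with each gene's spread drawn toward that of all tested genes. Paralog ratios added 0.5 to each count. The members, lists and rules were chosen with earlier results of these data known. All 9 members were named. Of each other list, up to 4 genes past the threshold in each direction were named, together with the RAS GTPases, and the genes named besides these were chosen after their values were seen. Lists were written from memory, *Rasgrp2* was not analysed here, and 3 genes of the lists are not reported here. The alternatives were DESeq2 1.42.0, limma 3.58.1 voom with quality weights, RLE factors, library size only, filterByExpr, no filter, thinned counts, mitochondrial genes left out, robust dispersions, an adjusted p under 0.01, and each tumor left out. The procedure was tested on simulated data. Promoter windows were RefSeq's for GRCm38.p6.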

Additional observations from a re-analysis of the deposited data

How the results depend on the processing

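Across 15 alternatives for each of the 8 tested members (120 comparisons), 109 kept direction and side of the threshold, 4 lost the call, 6 gained one and 1 turned direction. For the 24 genes acting with them (360 comparisons) these counts were 327, 4, 19 and 10. The adjusted p under 0.01 was not among the 15 alternatives compared gene by gene. There *Rasa1* and *Rasa2* also lost their calls, with edgeR adjusted p of 0.0142 and 0.0112. DESeq2 kept the member calls. Members lower in RGS tumors numbered 1, but 2 with voom, 3 with library size only, 2 with thinned counts, 0 at an edgeR adjusted p under 0.01 (3 at an unadjusted p under 0.05), and 0 (without vehicle replicate 8) to 2 (without vehicle replicate 9 or RGS replicate 10) with a tumor left out. Members higher numbered 2, but 1 with library size only, 1 at an adjusted p under 0.01, and 1 (without vehicle replicate 8 or RGS replicate 10) to 2 with a tumor left out. Library size only gave 3152 lower and 1870 higher calls over all genes, against 2533 and 2503. Acting genes lower numbered 2, but 3 with voom, 1 at an adjusted p under 0.01 and 1 (without vehicle replicate 8, vehicle replicate 9 or RGS replicate 10) to 2 with a tumor left out. Those higher numbered 5, but 6 with DESeq2, 6 with no filter, 6 with thinned counts and 11 with voom. With a tumor left out they numbered 5 to 12, the 12 without vehicle replicate 7. Directions turned for *Rasal2* (-0.44 to 0.061 with a tumor left out), *Mras* (0.021 with voom, -0.12 to 0.082), *Gab1* (-0.41 to 0.047), *Frs2* (-0.10 with library size only, -0.060 to 0.16) and *Dok2* (-7.77 to 0.19). None of these was called, except *Dok2* with voom and without RGS replicate 12. The ratio of GTPase activators to exchange factors differed by 0.42 when not divided by length. The causes were not tested. No paired analysis was possible because the groups share no replicate number. For *Rasgrp1*, the depth sets the limit that a count of 0 allows.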
